A study of Saccharomyces cerevisiae with 12 samples.

Results

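The genes of the yeast translation initiation factors were followed in polysome mRNA-Seq of *Saccharomyces cerevisiae*. They were listed by systematic name from their known roles and comprise 30 of the 7126 gene IDs in the count files. All 30 were found and all 30 passed the filter on low counts, which left 6003 genes to test. The study compared polysomal mRNA (P), pooled from the polysome fractions of a sucrose gradient, with the total cellular mRNA (T) in ΔES27Lb and in wildtype yeast. There were 3 replicates of each mRNA pool in each strain, which made 4 conditions and 12 libraries. Both strains derive from yJD1045, in which the chromosomal rDNA is deleted (rdn1ΔΔ::HIS3), so that all rRNA comes from a plasmid. The plasmid, based on pJD694, transcribes the 35S pre-rRNA from a tetracycline-repressible promoter and carries a hygromycin B resistance mutation in the 18S rRNA. In ΔES27Lb the plasmid lacks the b-arm of ES27L, an expansion segment of the 25S rRNA, and in wildtype this arm is intact. The cells were grown in YPD medium to an OD of 0.8 without stress.

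Initiation in eukaryotes begins when eIF2, bound to GTP and the initiator tRNA, joins the small ribosomal subunit together with eIF1, eIF1A, eIF3 and eIF5. The eIF4F complex, made of the cap-binding protein eIF4E, the scaffold eIF4G and the helicase eIF4A, brings this subunit to the mRNA cap, and the poly(A)-binding protein Pab1 contacts eIF4G. After scanning and recognition of the start codon, eIF5 stimulates GTP hydrolysis by eIF2, eIF5B joins the large subunit, and eIF2B reloads eIF2 with GTP.

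Each library held 15050764 to 21532842 counts on 6269 to 6688 genes, so that the spread between replicates and not counting error set the precision. RNAs that are not translated (snoRNAs, snRNAs and telomerase RNA, 83 genes) together had 80.5 to 102 CPM (counts scaled to the library total) in the polysomal libraries, against 339 to 595 CPM in the total libraries. The deletion lies within the 25S rRNA and could not be seen in these counts. The library of wildtype total mRNA replicate 1 stood apart. In it, 162 genes were more than 2-fold above the highest of the other 11 libraries, against 0 to 32 genes in each of the others. *DED1* was the initiation factor gene among these 162. Results that rest on this library are therefore given with and without wildtype replicate 1. Wildtype replicate 3 was low for many initiation factor genes. It had the lowest CPM of the 6 libraries for 21 of 30 genes in polysomal mRNA, against 24.7% of all genes, and for 23 of 30 in total mRNA, against 20.3% of all genes. Together the 30 genes took 1.22% to 1.33% of the counts in ΔES27Lb polysomal libraries, against 0.934% to 1.39% in wildtype polysomal libraries. In total libraries they took 1.17% to 1.39% in ΔES27Lb, against 0.967% to 1.84% in wildtype. These ranges overlapped in both pools, and the low and high ends were both set by wildtype.

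*TIF1* (YKR059W) and *TIF2* (YJL138C), which encode eIF4A, cannot be separated safely in these data. In the S288C reference annotation R64 their 395 residues were 100% identical and their coding sequences of 1188 nucleotides differed at 6 positions. Of the windows of 50 nucleotides in *TIF1*, 84.9% also occurred in *TIF2*, and how reads with several matches were counted is not given in the sources used here. *TIF2* over *TIF1*, on the TPM scale (counts per coding length, scaled to an equal sum in each library), was 1.003 to 1.37 in ΔES27Lb polysomal libraries, against 1.04 to 1.34 in wildtype polysomal libraries. Each of the genes is given below as counted, and their sum beside it. The eIF4G paralogs *TIF4631* and *TIF4632* (56.0% identical residues) and the helicases *DED1* and *DBP1* (74.7%) shared 0 windows of 50 nucleotides.

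Levels were compared between genes on the TPM scale in total mRNA, where the genes spanned a wide range. *SUI1* (YNL244C, eIF1) was highest with a median of 1258 TPM over the 6 total libraries (range 939 to 1423), followed by *TIF11* (YMR260C, eIF1A) with 1075 TPM and *CDC33* (YOL139C, eIF4E) with 804 TPM. *SUI1* was above *TIF11* in 5 of 6 libraries, and *TIF11* above *CDC33* in 6 of 6. Of the coding genes, 97.1% had a lower median than *SUI1*. At the other end, *DBP1* (YPL119C), a paralog of the scanning helicase gene *DED1* (YOR204W), had a median of 2.91 TPM, and *DED1* had 80.4 TPM.

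**Figure D1:**
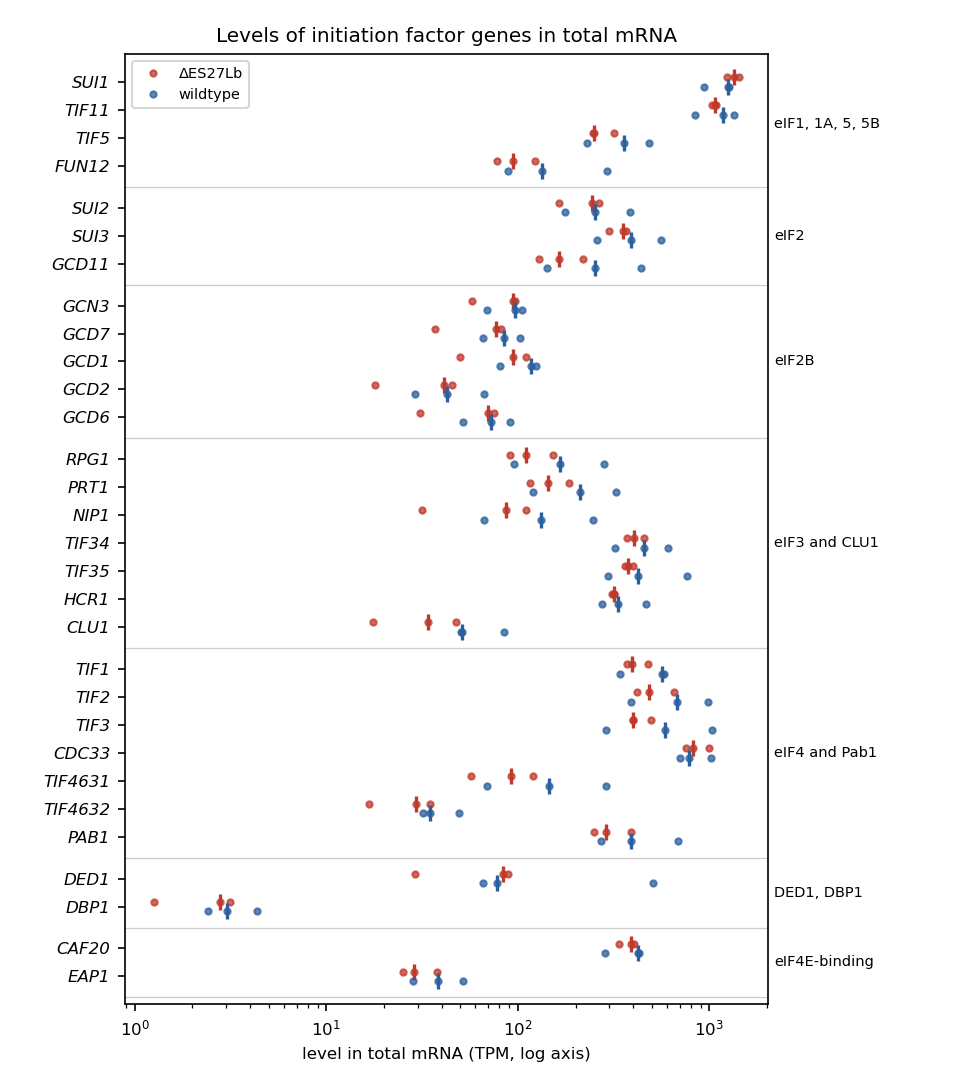
Level of each initiation factor gene in total mRNA (TPM, log axis), with a point for each of 3 ΔES27Lb libraries (red, upper) and 3 wildtype libraries (blue, lower) and a tick at their median. The genes run from *SUI1*, with a median of 1258 TPM, to *DBP1*, with 2.91 TPM, and the highest *DED1* point (506 TPM) is wildtype replicate 1.

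Subunits of one complex differed in level. The genes of eIF2, *SUI3* (β), *SUI2* (α) and *GCD11* (γ), had medians of 359, 248 and 192 TPM, while those of its exchange factor eIF2B lay between 42.0 TPM for *GCD2* (δ) and 102 TPM for *GCD1* (γ), with *GCD7* (β) at 79.1 TPM. The median eIF2 gene was 3.37 to 4.81 times the median eIF2B gene in ΔES27Lb polysomal libraries, against 3.46 to 3.58 times in wildtype polysomal libraries. In total libraries this ratio was 3.17 to 4.42 in ΔES27Lb, against 2.67 to 4.32 in wildtype, so the strains overlapped in both pools. Within eIF3, the scaffold of the scanning complex, the short genes *TIF34* (i), *TIF35* (g) and *HCR1* (j) had medians of 431, 386 and 317 TPM. The long genes *PRT1* (b), *RPG1* (a) and *NIP1* (c) had 165, 131 and 98.5 TPM. *CLU1*, whose protein has been found with eIF3, had 48.9 TPM. The short over the long eIF3 genes, as a ratio of medians in TPM, were 4.52 to 9.08 in ΔES27Lb polysomal libraries and 2.60 to 3.97 in ΔES27Lb total libraries. In wildtype the same ratio was 4.92 to 6.95 in polysomal libraries and 2.16 to 3.07 in total libraries. The polysomal libraries were thus above the total libraries in both strains, and the strains overlapped within each pool.

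Paralogs and competing partners also differed in level. *TIF4631* (eIF4G1) exceeded *TIF4632* (eIF4G2) 2.64- to 4.10-fold in ΔES27Lb total libraries, against 1.98- to 5.88-fold in wildtype total libraries, on the TPM scale. *DED1* exceeded *DBP1* 23.0- to 31.8-fold in ΔES27Lb total libraries, against 15.2- to 166-fold in wildtype, where 166 came from replicate 1. *CAF20* and *EAP1* encode eIF4E-binding proteins that compete with eIF4G. *CAF20* exceeded *EAP1* 10.4- to 14.1-fold in ΔES27Lb total libraries, against 7.44- to 15.1-fold in wildtype total libraries. *CAF20* reached 0.394 to 0.535 times the TPM of its partner gene *CDC33* in ΔES27Lb total libraries, against 0.409 to 0.550 times in wildtype. None of these ratios separated the strains.

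The P/T ratio is the level of an mRNA in polysomal over that in total mRNA, relative to the other mRNAs in each library. A shift common to all mRNAs is therefore not seen. Libraries of a strain with the same replicate number are treated here as a culture. The labels name no cultures, so values of single cultures and fits with the culture as a block rest on an assumed pairing. In ΔES27Lb, 18 of 30 genes had a log2 P/T above 0, with a median of 0.26, against -0.06 over all genes tested. In wildtype, 17 of 30 were above 0 with a median of 0.06, against -0.06 over all genes. In the fit without wildtype replicate 1, 20 of 30 were above 0 in ΔES27Lb with a median of 0.32, and 21 of 30 in wildtype with a median of 0.28. Within ΔES27Lb, 15 of 30 genes (50%) were above 0 in all 3 cultures, against 25.7% of all genes, and 5 of 30 (16.7%) were below 0 in all 3, against 30.8%. Within wildtype, 10 of 30 (33.3%) were above 0 in all 3 cultures, against 32.4% of all genes, and 8 of 30 (26.7%) were below 0 in all 3, against 34.5%. In both strains together, 7 of 30 genes (23.3%) were above 0 in all 6, namely *TIF11*, *SUI3*, *TIF34*, *HCR1*, *TIF1*, *CDC33* and *CAF20*. Over all genes the share was 20.5%. Another 5 of 30 (16.7%) were below 0 in all 6, namely *FUN12*, *GCD6*, *CLU1*, *TIF4631* and *TIF4632*, against 22.4% of all genes.

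With the quasi-likelihood test of edgeR and no block for the culture, 0 of 30 genes were called at an adjusted p of 0.05 in ΔES27Lb, where 0% of all genes were called. In wildtype 0 of 30 were called, against 0.117% of all genes. An unadjusted p of 0.05 or less was reached by 1 of 30 in ΔES27Lb and by 4 of 30 in wildtype. The share of all genes at this unadjusted p is given neither here nor below. Such counts therefore do not show more or fewer genes than in the background. DESeq2 also called 0 of 30 in both strains, against 1.05% of all genes in ΔES27Lb and 12% in wildtype. The fit was repeated with the culture, as assumed from the replicate numbers, as a block. With this block, 1 of 30 was called in ΔES27Lb, against 6.96% of all genes. In wildtype 10 of 30 were called, against 32.5% of all genes, with 5 higher in polysomal mRNA (16.9% of all genes) and 5 lower (15.6%). Leaving out wildtype replicate 1 changed the blocked calls. It gave 12 of 30 in ΔES27Lb, all higher, against 28.1% of all genes, namely *TIF35*, *CDC33*, *CAF20*, *HCR1*, *SUI3*, *TIF5*, *TIF3*, *TIF34*, *TIF11*, *EAP1*, *TIF1* and *PAB1*. In wildtype it gave 8 of 30, all higher, against 14.4%, namely *TIF35*, *CDC33*, *CAF20*, *HCR1*, *SUI3*, *TIF34*, *TIF11* and *SUI2*. The shares of 28.1% and 14.4% count genes called in either direction. The share of all genes called higher in this fit is not given, so the direction has no background. The other cultures mattered too. Without wildtype replicates 2 or 3, or ΔES27Lb replicates 1, 2 or 3, the blocked count in ΔES27Lb was 0 each time, and in wildtype it was 6, 2, 5, 7 and 4 in that order. The shares of all genes called in these fits are not given here, so the counts cannot be set against them.

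**Figure D2:**
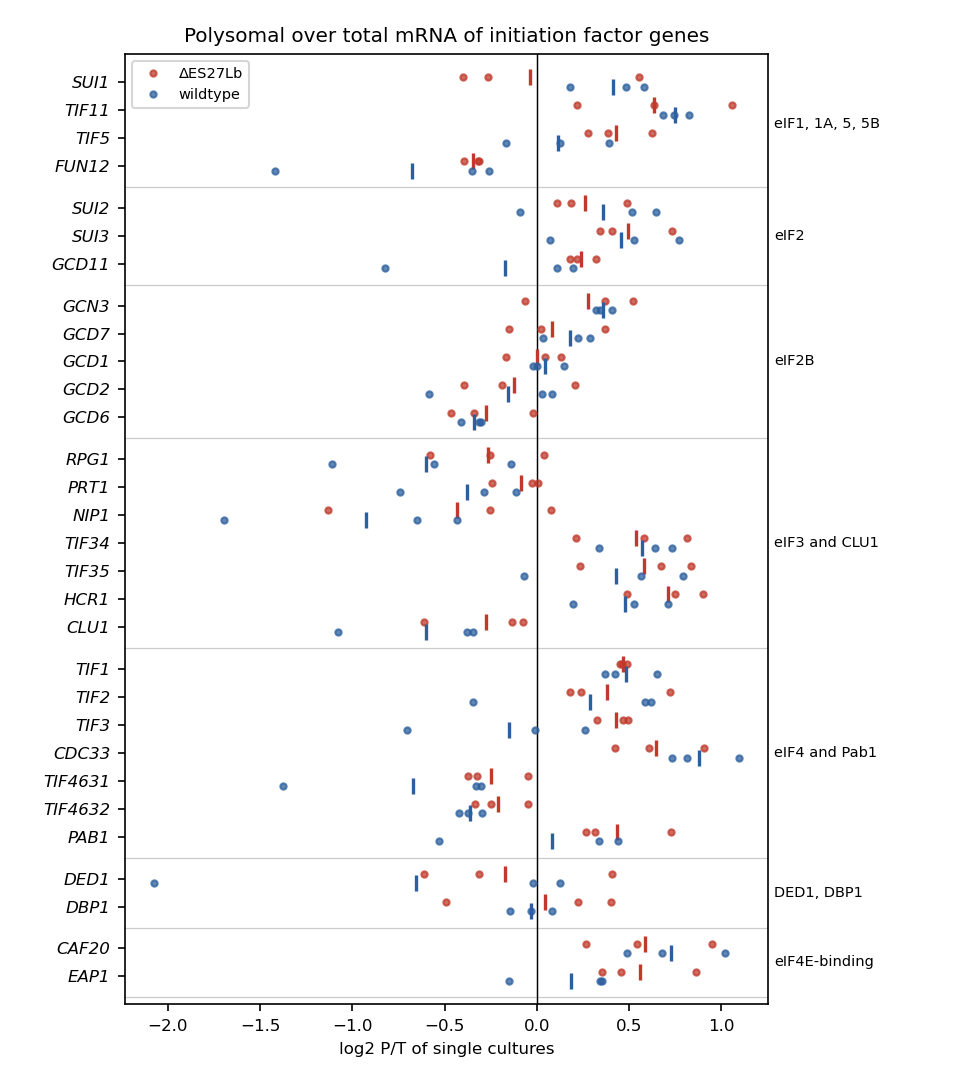
Log2 P/T of each initiation factor gene in single cultures, 3 of ΔES27Lb (red, upper) and 3 of wildtype (blue, lower), with a tick at the mean. The line at 0 marks equal levels relative to the other mRNAs. *CDC33*, *HCR1* and *TIF11* lie above 0 in all 6 cultures, *FUN12* and *TIF4631* below 0 in all 6, and the lowest point is *DED1* in wildtype replicate 1 (-2.08).

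Among the factors that set start codon choice, *TIF11* (eIF1A) had a log2 P/T above 0 in all 6 cultures. *TIF11* had 697, 1298 and 1418 CPM in polysomal mRNA of ΔES27Lb replicates 1 to 3, against 599, 623 and 914 CPM in total mRNA. *TIF11* in wildtype replicates 1 to 3 had 989, 1158 and 763 CPM in polysomal mRNA, against 616, 692 and 430.1 CPM in total mRNA. The wildtype pools did not overlap, and in ΔES27Lb the polysomal value of replicate 1 lay within the range of total mRNA. The log2 P/T without a block was 0.68 in ΔES27Lb (SE 0.32, adjusted p 0.34 in edgeR) and 0.74 in wildtype (SE 0.32, adjusted p 0.16). With the block, the adjusted p from edgeR was 0.063 in ΔES27Lb and 0.018 in wildtype. *SUI1* (eIF1), which helps reject wrong start codons, varied more between the cultures. *SUI1* had 426, 744 and 698 CPM in polysomal mRNA of ΔES27Lb replicates 1 to 3, against 564, 508 and 839.7 CPM in total mRNA. *SUI1* in wildtype replicates 1 to 3 had 619, 589.6 and 475 CPM in polysomal mRNA, against 414, 521 and 339 CPM in total mRNA. The pools overlapped in both strains, and the log2 P/T of single cultures was -0.40, 0.55 and -0.27 in ΔES27Lb cultures 1 to 3 and 0.58, 0.18 and 0.48 in wildtype cultures 1 to 3. *TIF5* (eIF5) had a log2 P/T of 0.45 in ΔES27Lb and 0.08 in wildtype, and no call in either strain with or without the block.

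*FUN12* (YAL035W, eIF5B), the GTPase that joins the subunits, had a log2 P/T below 0 in all 6 cultures. *FUN12* had 274, 373 and 338 CPM in polysomal mRNA of ΔES27Lb replicates 1 to 3, against 342, 464 and 445 CPM in total mRNA. *FUN12* in wildtype replicates 1 to 3 had 329, 429.6 and 231 CPM in polysomal mRNA, against 880.2, 514 and 296 CPM in total mRNA. The pools overlapped in both strains, and the log2 P/T of single cultures was -0.32, -0.31 and -0.40 in ΔES27Lb cultures 1 to 3 and -1.42, -0.26 and -0.35 in wildtype cultures 1 to 3. With the block, *FUN12* was lower in wildtype (log2 P/T -0.67, SE 0.22, adjusted p 0.041 in edgeR) and not called in ΔES27Lb (-0.34, SE 0.22, adjusted p 0.28). Without wildtype replicate 1, the blocked value in wildtype was -0.28 with an adjusted p of 0.24 in edgeR.

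The eIF2 genes *SUI2*, *SUI3* and *GCD11* had log2 P/T of 0.27, 0.53 and 0.25 in ΔES27Lb and of 0.32, 0.42 and -0.24 in wildtype, without a call in either fit. The wildtype value of *GCD11* was 0.18 with wildtype replicate 1 left out. Of them, *SUI3* was above 0 in all 6 cultures. In the blocked fit without wildtype replicate 1, *SUI3* was called higher in ΔES27Lb (0.56, adjusted p 0.019 in edgeR) and in wildtype (0.68, adjusted p 0.035), and *SUI2* in wildtype (0.61, adjusted p 0.039). The 5 eIF2B genes ran from -0.30 for *GCD6*, the catalytic subunit, to 0.30 for *GCN3*, the regulatory α subunit, in ΔES27Lb. In wildtype they ran from -0.35 to 0.35 with the same genes at the ends, and 0 of 5 were called with or without the block.

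The eIF3 genes lay on both sides of 0. *HCR1* (YLR192C, eIF3j), a loosely bound subunit, had the largest log2 P/T of the 30 genes in ΔES27Lb. *HCR1* had 422, 588 and 817 CPM in polysomal mRNA of ΔES27Lb replicates 1 to 3, against 301, 315 and 486 CPM in total mRNA. *HCR1* in wildtype replicates 1 to 3 had 425, 493 and 399 CPM in polysomal mRNA, against 370.1, 341 and 243 CPM in total mRNA. The wildtype pools did not overlap, and in ΔES27Lb 1 polysomal value (422 CPM) lay below the highest total value (486 CPM). *HCR1* had a log2 P/T of 0.73 in ΔES27Lb (SE 0.30, adjusted p 0.31 in edgeR) and of 0.46 in wildtype (SE 0.30, adjusted p 0.32). With the block it was the one gene called in ΔES27Lb (0.71, SE 0.17, adjusted p 0.046 in edgeR), and it missed the threshold in wildtype (0.48, SE 0.17, adjusted p 0.052). The ΔES27Lb call was lost when any culture but wildtype replicate 1 was left out. *TIF34* (YMR146C, eIF3i) was likewise above 0 in all 6 cultures. *TIF34* had 592, 1047 and 1109.9 CPM in polysomal mRNA of ΔES27Lb replicates 1 to 3, against 510.5, 597 and 743 CPM in total mRNA. *TIF34* in wildtype replicates 1 to 3 had 801, 1017 and 576 CPM in polysomal mRNA, against 635, 611 and 370.1 CPM in total mRNA. In both strains the polysomal and total values overlapped. The blocked fit of edgeR called *TIF34* in wildtype (0.57, SE 0.18, adjusted p 0.036), while in ΔES27Lb it gave 0.54 (SE 0.18, adjusted p 0.081). *TIF35* (eIF3g), which binds *TIF34*'s product, had 0.62 in ΔES27Lb and 0.40 in wildtype without a call.

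The long eIF3 genes were on the other side. *NIP1* (YMR309C, eIF3c), a core subunit that binds eIF1 and eIF5, had the lowest mean log2 P/T over the cultures of both strains among the 30 genes. *NIP1* had 216, 153 and 155 CPM in polysomal mRNA of ΔES27Lb replicates 1 to 3, against 257, 335 and 147 CPM in total mRNA. *NIP1* in wildtype replicates 1 to 3 had 185, 263 and 132 CPM in polysomal mRNA, against 598, 412 and 179 CPM in total mRNA. Wildtype replicate 1 was the highest of the total libraries and ΔES27Lb replicate 3 the lowest, and the pools overlapped in both strains. Its log2 P/T in single cultures was -0.25, -1.13 and 0.08 in ΔES27Lb cultures 1 to 3 and -1.70, -0.65 and -0.43 in wildtype cultures 1 to 3. With the block, *NIP1* was lower in wildtype (-0.92, SE 0.28, adjusted p 0.031 in edgeR) and not called in ΔES27Lb (-0.43, SE 0.28, adjusted p 0.28). *PRT1* (eIF3b) had -0.09 in ΔES27Lb and -0.40 in wildtype without a call. *RPG1* (YBR079C, eIF3a), the largest eIF3 subunit, had smaller values. *RPG1* had 323, 568 and 339 CPM in polysomal mRNA of ΔES27Lb replicates 1 to 3, against 385, 554 and 506 CPM in total mRNA. *RPG1* in wildtype replicates 1 to 3 had 378, 556 and 208 CPM in polysomal mRNA, against 815, 611 and 307 CPM in total mRNA. The pools overlapped in both strains, and *RPG1* was at the threshold in wildtype with the block (-0.60, SE 0.21, adjusted p 0.049 in edgeR). *CLU1* (YMR012W) was below 0 in all 6 cultures. *CLU1* had 144, 149 and 122 CPM in polysomal mRNA of ΔES27Lb replicates 1 to 3, against 158, 227 and 128 CPM in total mRNA. *CLU1* in wildtype replicates 1 to 3 had 154, 197 and 165 CPM in polysomal mRNA, against 325, 250.3 and 214 CPM in total mRNA. The wildtype pools did not overlap, and *CLU1* was lower there with the block (-0.60, SE 0.19, adjusted p 0.036 in edgeR). Without wildtype replicate 1, *NIP1*, *RPG1* and *CLU1* had adjusted p of 0.15, 0.28 and 0.20 in the blocked fit of edgeR for wildtype.

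In the cap-binding complex, *CDC33* (eIF4E) had the largest log2 P/T of the 30 genes in wildtype. *CDC33* had 859, 1215 and 1739.9 CPM in polysomal mRNA of ΔES27Lb replicates 1 to 3, against 641, 797 and 929 CPM in total mRNA. *CDC33* in wildtype replicates 1 to 3 had 1071, 1384 and 872 CPM in polysomal mRNA, against 501, 833 and 496 CPM in total mRNA. All 3 wildtype polysomal values exceeded all 3 total values, and in ΔES27Lb the lowest polysomal value lay within the range of total mRNA. *CDC33* had a log2 P/T of 0.69 in ΔES27Lb (SE 0.33, adjusted p 0.34 in edgeR) and of 0.86 in wildtype (SE 0.33, adjusted p 0.12). With the block it was called in wildtype (0.88, SE 0.18, adjusted p 0.012 in edgeR), and in ΔES27Lb it missed the threshold (0.65, SE 0.18, adjusted p 0.053). *TIF4631* (YGR162W, eIF4G1), the scaffold that eIF4E binds, was below 0 in all 6 cultures. *TIF4631* had 245, 344 and 302 CPM in polysomal mRNA of ΔES27Lb replicates 1 to 3, against 317, 430.3 and 313 CPM in total mRNA. *TIF4631* in wildtype replicates 1 to 3 had 317, 433 and 173 CPM in polysomal mRNA, against 822, 534 and 218 CPM in total mRNA. The pools overlapped in both strains. In the blocked fit *TIF4631* was lower in wildtype (-0.67, SE 0.22, adjusted p 0.041 in edgeR) and not called in ΔES27Lb (-0.25, SE 0.22, adjusted p 0.43). Without wildtype replicate 1 the wildtype value was -0.29 (adjusted p 0.23 in edgeR). The other eIF4G gene, *TIF4632*, was called in neither strain. *TIF4632* had 91.2, 84.7 and 84.4 CPM in polysomal mRNA of ΔES27Lb replicates 1 to 3, against 115, 101 and 87.1 CPM in total mRNA. *TIF4632* in wildtype replicates 1 to 3 had 100, 86.2 and 86.1 CPM in polysomal mRNA, against 134, 112 and 106 CPM in total mRNA. Its wildtype pools did not overlap, its ΔES27Lb pools did, and its log2 P/T was -0.22 in ΔES27Lb and -0.37 in wildtype.

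The eIF4A genes were above 0 in most cultures. *TIF1* had 785, 991 and 1147 CPM in polysomal mRNA of ΔES27Lb replicates 1 to 3, against 569.9, 706 and 839 CPM in total mRNA. *TIF1* in wildtype replicates 1 to 3 had 884, 1155 and 706 CPM in polysomal mRNA, against 683, 862 and 449 CPM in total mRNA. *TIF1* pools overlapped in both strains, and the blocked fit of edgeR called *TIF1* in wildtype (0.48, SE 0.16, adjusted p 0.042) but not in ΔES27Lb (0.47, SE 0.16, adjusted p 0.083). *TIF2* had 787, 1149.8 and 1574 CPM in polysomal mRNA of ΔES27Lb replicates 1 to 3, against 694, 973 and 954 CPM in total mRNA. *TIF2* in wildtype replicates 1 to 3 had 917, 1543 and 779.5 CPM in polysomal mRNA, against 1164, 1028 and 508 CPM in total mRNA. *TIF2* pools overlapped too, and it was not called. Since reads of the 2 genes cannot be assigned safely, their summed counts were fitted as well. The sum had a log2 P/T of 0.44 in ΔES27Lb (SE 0.34, adjusted p 0.50 in edgeR without a block) and of 0.35 in wildtype (SE 0.34, adjusted p 0.52). Without a block, *TIF1* alone was not called in wildtype either (0.46, SE 0.30, adjusted p 0.33 in edgeR). The sum was not fitted with the block, so it does not bear on the blocked call of *TIF1*. *PAB1* (YER165W) had 0.46 in ΔES27Lb and 0.04 in wildtype, and 0.44 in wildtype with replicate 1 left out.

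Of the eIF4E-binding proteins, *CAF20* (YOR276W) was also above 0 in all 6 cultures. *CAF20* had 239, 458 and 548 CPM in polysomal mRNA of ΔES27Lb replicates 1 to 3, against 198, 237 and 376 CPM in total mRNA. *CAF20* in wildtype replicates 1 to 3 had 293, 421 and 312 CPM in polysomal mRNA, against 209, 264 and 154 CPM in total mRNA. The wildtype pools did not overlap, and the blocked fit called *CAF20* in wildtype (0.73, SE 0.18, adjusted p 0.017 in edgeR). In ΔES27Lb the same fit gave 0.59 (SE 0.18, adjusted p 0.067). *EAP1* (YKL204W) had its larger value in ΔES27Lb. *EAP1* had 105, 114 and 143 CPM in polysomal mRNA of ΔES27Lb replicates 1 to 3, against 57.5, 89.3 and 104 CPM in total mRNA. *EAP1* in wildtype replicates 1 to 3 had 88.2, 86.9 and 103 CPM in polysomal mRNA, against 97.9, 68.5 and 80.8 CPM in total mRNA. Here the ΔES27Lb pools nearly touched, with a lowest polysomal value of 104.68 CPM and a highest total value of 104.35 CPM. The wildtype pools overlapped. *EAP1* had a log2 P/T of 0.53 in ΔES27Lb (SE 0.25, adjusted p 0.34 in edgeR) and of 0.17 in wildtype (SE 0.25, adjusted p 0.67). With the block, the adjusted p from edgeR in ΔES27Lb was 0.068.

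*DED1* encodes a DEAD-box helicase that unwinds leaders during scanning. *DED1* had 127, 152 and 133 CPM in polysomal mRNA of ΔES27Lb replicates 1 to 3, against 194, 189 and 100.3 CPM in total mRNA. *DED1* in wildtype replicates 1 to 3 had 217, 178 and 144 CPM in polysomal mRNA, against 915, 180.2 and 132 CPM in total mRNA. The total library of wildtype replicate 1 was 4.21 times the highest of the other 11 libraries and 5.86 times the mean of the other wildtype total libraries. Outside this library, *DED1* lay between 100.3 and 217 CPM, and the groups overlapped. Its log2 P/T was -0.23 in ΔES27Lb (SE 0.57, adjusted p 0.86 in edgeR) and -1.19 in wildtype (SE 0.58, adjusted p 0.20). Without wildtype replicate 1 the wildtype value was 0.08. *DBP1* had 7.31, 5.16 and 5.91 CPM in polysomal mRNA of ΔES27Lb replicates 1 to 3, against 6.25, 7.27 and 4.46 CPM in total mRNA. *DBP1* in wildtype replicates 1 to 3 had 5.95, 5.6 and 8.04 CPM in polysomal mRNA, against 5.63, 5.74 and 8.88 CPM in total mRNA. The *DBP1* pools overlapped in both strains, with log2 P/T of 0.03 in ΔES27Lb (SE 0.30) and -0.05 in wildtype (SE 0.30).

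The order of the P/T values followed the length of the coding sequence (CDS). Of the 15 genes with a CDS under 1400 nucleotides, 14 had a mean log2 P/T above 0 in ΔES27Lb and 14 in wildtype, with *SUI1* the exception in ΔES27Lb and *TIF3* in wildtype. Of the 8 genes of 2100 nucleotides or more, all were below 0 in both strains. Spearman's rho of log2 P/T and CDS length over the 30 genes was -0.48, -0.83 and -0.69 in ΔES27Lb cultures 1 to 3 and -0.82, -0.86 and -0.92 in wildtype cultures 1 to 3. Over 5695 genes with a CDS length, it was -0.15, -0.57 and -0.36 in ΔES27Lb and -0.61, -0.54 and -0.67 in wildtype. These correlations are descriptions across genes that share the same libraries and are not independent. *EAP1* lay high for its 1899 nucleotides, at 0.56 ± 0.27 in ΔES27Lb and 0.18 ± 0.29 in wildtype (SD, n = 3 cultures). Each library was then corrected for CDS length in the fit with the block. In wildtype 0 of 30 genes were called, against 5.66% of all genes. An unadjusted p of 0.05 or less was seen there for 4 of 30 in edgeR, without a share of all genes to set beside it. In ΔES27Lb 1 of 30 was called, against 2.43% of all genes, and this was *EAP1* (0.74, adjusted p 0.046 in edgeR). In wildtype *EAP1* was near the threshold in that fit (0.48, SE 0.14, adjusted p 0.069 in edgeR), and the strains differed by 0.26 (SE 0.20). *HCR1* in ΔES27Lb had an adjusted p of 0.074 in that fit.

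**Figure D3:**
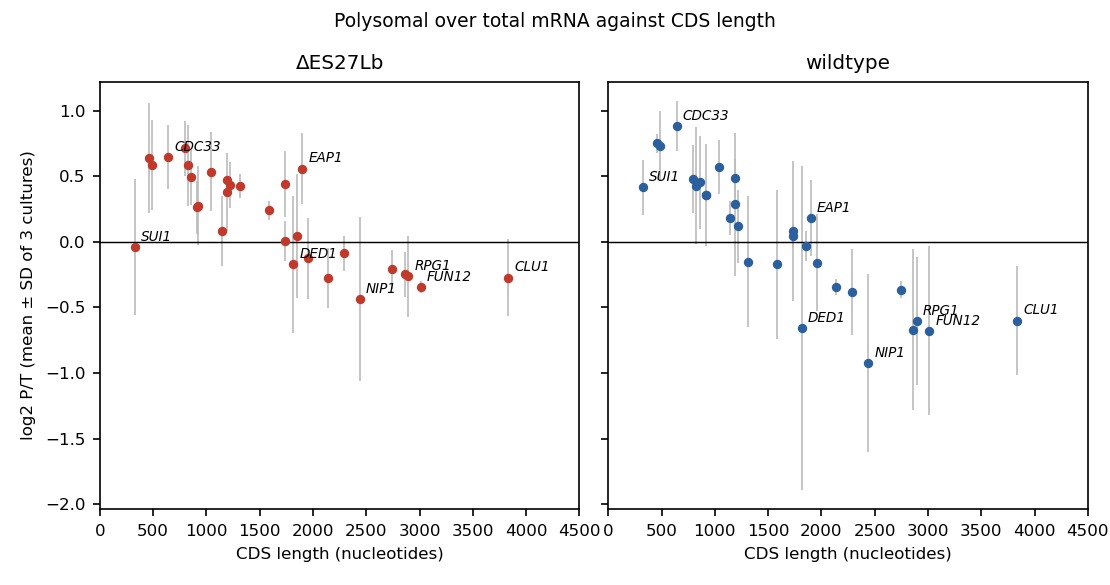
Mean log2 P/T of each initiation factor gene against its CDS length in nucleotides, in ΔES27Lb (left) and wildtype (right), with bars of 1 SD over 3 cultures. All 8 genes of 2100 nucleotides or more lie below 0 in both panels, and the long bar of *DED1* in wildtype comes from replicate 1.

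The question of the study was whether ΔES27Lb ribosomes translate particular mRNAs, which the strain difference in P/T addresses. For the initiation factor genes, 22 of 30 had a higher P/T in ΔES27Lb, with a median difference of 0.15 on the log2 scale, against 0.00 over all genes tested. With wildtype replicate 1 left out, 15 of 30 were higher and the median was 0.00. In edgeR 0 of 30 were called, as were 0% of all genes, and an unadjusted p of 0.05 or less was seen for 0 of 30. DESeq2 called 0 of 30, against 0.0145% of all genes, and the fit with the block called 0 of 30, against 0%.

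The largest differences in P/T were those of *DED1* (0.96), *TIF3* (0.69), *NIP1* (0.54) and *TIF4631* (0.52), each with an adjusted p of 0.9997 in edgeR. *TIF3* (YPR163C), which encodes eIF4B, a cofactor of eIF4A, was the one gene whose cultures did not overlap. *TIF3* had 796, 1139 and 1382 CPM in polysomal mRNA of ΔES27Lb replicates 1 to 3, against 635, 808 and 1002 CPM in total mRNA. *TIF3* in wildtype replicates 1 to 3 had 828, 979.5 and 501 CPM in polysomal mRNA, against 1348, 986 and 419 CPM in total mRNA. Its log2 P/T was 0.32, 0.50 and 0.46 in ΔES27Lb cultures 1 to 3 and -0.70, -0.01 and 0.26 in wildtype cultures 1 to 3, so all 3 ΔES27Lb cultures were above all 3 wildtype cultures. This was 1 of 30 genes, against 7.5% of all genes tested. The lowest wildtype value was that of replicate 1, and without it the difference was 0.38 (SE 0.62). The differences without that culture were -0.24 for *DED1* (SE 0.43), 0.10 for *NIP1* (SE 0.63) and 0.08 for *TIF4631* (SE 0.62).

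In total mRNA, 12 of 30 genes were higher in ΔES27Lb than in wildtype, with a median log2 difference of -0.06, against 0.00 over all genes tested. With wildtype replicate 1 left out, 22 of 30 were higher and the median was 0.10. Wildtype replicate 3, kept in that fit, was the lowest of the total libraries for 23 of 30 genes, against 20.3% of all genes. The median changed sign with the culture left out, so neither count shows a direction. In edgeR 0 of 30 were called, against 0% of all genes, and an unadjusted p of 0.05 or less was seen for 2 of 30. DESeq2 called 0 of 30, against 0.0579% of all genes. The fit with the replicate number as a block called 0 of 30, against 0%. The strains did not overlap for 0 of 30 genes, against 8.06% of all genes. The largest differences were those of *DED1*, *NIP1*, *CLU1* and *SUI1*, whose values in each library are given above. *DED1* differed by a log2 of -1.34 in ΔES27Lb (SE 0.58, unadjusted p 0.038, adjusted p 0.75 in edgeR), and without wildtype replicate 1 the difference was 0.02 (SE 0.30). *NIP1* differed by -0.69 (SE 0.43, adjusted p 0.75 in edgeR), and by -0.28 without wildtype replicate 1. *CLU1* differed by -0.62 (SE 0.26, unadjusted p 0.032, adjusted p 0.75 in edgeR), and by -0.47 without that replicate. Both genes were lower in ΔES27Lb in each of the 3 same-numbered pairs of total libraries, and with the replicate block the differences were -0.63 for *NIP1* (SE 0.30, adjusted p 0.46 in edgeR) and -0.64 for *CLU1* (SE 0.21, adjusted p 0.45). *SUI1* was the largest in the other direction, at 0.58 (SE 0.29, adjusted p 0.75 in edgeR), and 0.55 without it.

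In polysomal mRNA, 20 of 30 genes were higher in ΔES27Lb, with a median log2 difference of 0.11, against -0.01 over all genes tested. Wildtype replicate 3 was the lowest of the polysomal libraries for 21 of 30 genes, against 24.7% of all genes. The median changed sign with the culture left out, so it does not show a direction. In edgeR 0 of 30 were called, against 0% of all genes, and an unadjusted p of 0.05 or less was seen for 0 of 30. DESeq2 called 0 of 30, against 0.0579% of all genes. The fit with the replicate number as a block called 0 of 30, against 0%. The strains did not overlap for 2 of 30 genes, against 5.61% of all genes. *CLU1* had 144, 149 and 122 CPM in ΔES27Lb polysomal libraries, all below the 154, 197 and 165 CPM of wildtype polysomal libraries, with a log2 difference of -0.31 (SE 0.26, adjusted p 0.9999 in edgeR). *EAP1* had 105, 114 and 143 CPM in ΔES27Lb polysomal libraries, all above the 88.2, 86.9 and 103 CPM in wildtype polysomal libraries, with a log2 difference of 0.38 (SE 0.25, adjusted p 0.9999 in edgeR). The gap between the nearest *EAP1* values, 105 and 103 CPM, was small beside their spread. The largest difference was that of *TIF3*, at 0.52 (SE 0.41), where the strains overlapped.

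**Figure D4:**
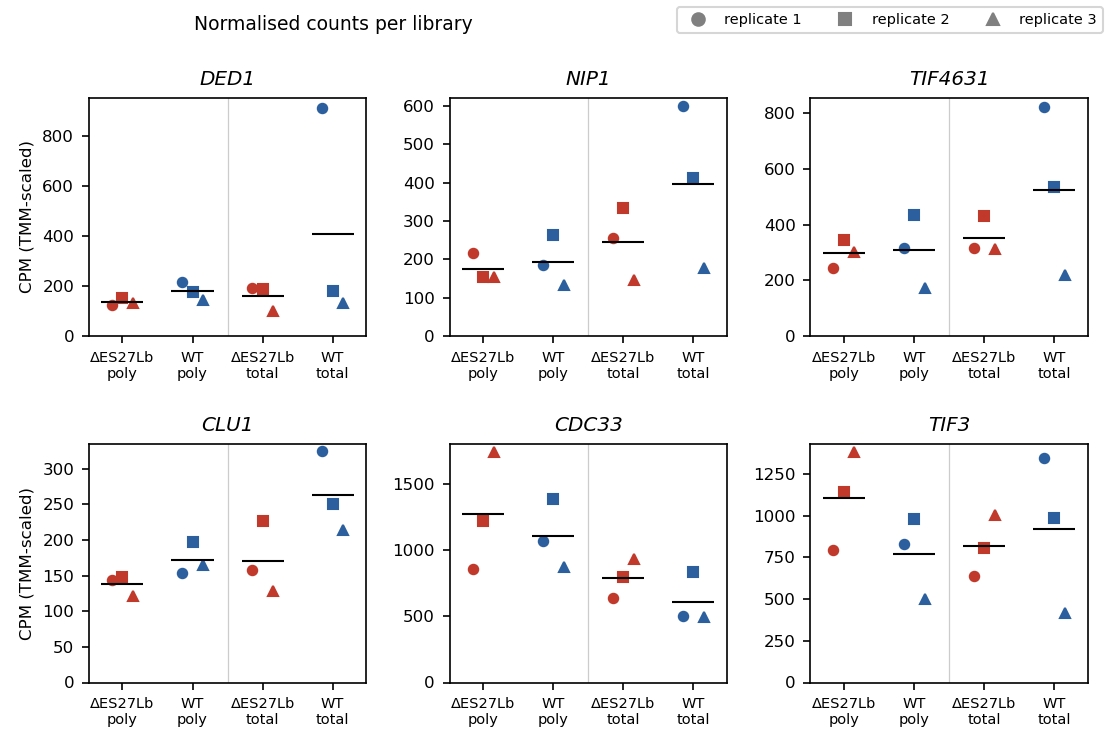
CPM of 6 initiation factor genes in each library, ΔES27Lb (red) left of wildtype (blue), for polysomal and for total mRNA, with a symbol for each replicate and a line at the mean of 3. The *DED1* point at 915 CPM is wildtype total replicate 1, and the *CLU1* polysomal values of ΔES27Lb (122 to 149 CPM) all lie below those of wildtype (154 to 197 CPM).

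A list of 22 further genes that act on initiation or on these factors, among them the eIF2α kinase pathway, eIF4G-binding repressors and nuclear cap-binding proteins, was read from the same fits. Without a block, 0 of 22 were called in any of the 5 comparisons in edgeR, with 6 of 22 in ΔES27Lb and 8 of 22 in wildtype at an unadjusted p of 0.05 or less for P/T. Between the strains, an unadjusted p of 0.05 or less was reached by 0 of 22 for P/T, 1 of 22 in total mRNA and 0 of 22 in polysomal mRNA. The shares of all genes at this unadjusted p are not given, so these counts cannot be set against a background. DESeq2 called 3 of 22 in P/T of wildtype, against 12% of all genes, namely *GCN2*, the eIF2α kinase, and its activator *GCN1*, both lower, and *YIH1*, an inhibitor of that activation, which was higher. With the block, 4 of 22 were called in ΔES27Lb, against 6.96% of all genes. *GCN1* was lower (-0.90, adjusted p 0.042 in edgeR), while *SCD6* (0.82, adjusted p 0.043) and *SBP1* (0.85, adjusted p 0.046), both repressors that bind eIF4G, and *TMA22* (0.76, adjusted p 0.045), a homolog of DENR, were higher. In wildtype 10 of 22 were called with the block, against 32.5% of all genes, with *RLI1*, *GCN2*, *GCN1* and *STO1* lower and *CBC2*, *TIF6*, *SCD6*, *TMA22*, *TMA20* and *YIH1* higher. With the CDS length offset and the block, 3 of 22 were called in ΔES27Lb, against 2.43% of all genes. *PBP1* (0.63) and *SCD6* (0.71) were higher and *GCN4* (-0.98) was lower. In wildtype the same fit called 1 of 22, against 5.66% of all genes, and this was *PBP1* (0.57, higher). In that fit *GCN1*, with a CDS of 8019 nucleotides, had a log2 P/T of 0.03 in ΔES27Lb (adjusted p 0.89 in edgeR) and of -0.11 in wildtype (adjusted p 0.61). *GCN2*, with 4980 nucleotides, had 0.06 in wildtype (adjusted p 0.81 in edgeR). The strain comparisons gave 0 of 22 with the block. *GCN4*, an activator whose translation is held back by upstream open reading frames, was below 0 in all 6 cultures. *GCN4* had 794, 1169 and 1031 CPM in polysomal mRNA of ΔES27Lb, against 2234, 1598 and 1418 CPM in total mRNA. In wildtype it had 1144, 1487 and 879 CPM in polysomal mRNA, against 1287, 1806 and 1242 CPM in total mRNA. Its pools did not overlap in ΔES27Lb and overlapped in wildtype, and with the block its adjusted p from edgeR was 0.058 in ΔES27Lb and 0.30 in wildtype.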

How the data were processed

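Poly(A)-enriched RNA from total lysates and from pooled polysome fractions was made into stranded libraries and sequenced on an Illumina HiSeq3000. Alignment by the authors was to BY4742, using HISAT2, and featureCounts gave the reads of each gene. FastQC is also named in the submitters' processing notes. Versions and the treatment of strand and of reads with several matches are not given in the sources used here. The deposited values are raw counts per gene, 1 table per library, without normalization. Samples were grouped by the strain and mRNA pool in their labels. The labels number the replicates and name no separate cultures, so p-values measure the spread between these samples, which may be technical.

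Counts were fitted in R 4.3.3 with the quasi-likelihood test of edgeR 4.0.16 (TMM normalization with factors of 0.746 to 1.29, default filter on low counts, 1 mean per condition over 12 libraries, no block). P-values were adjusted by the Benjamini-Hochberg method over 6003 genes and called at 0.05 or less. CPM of single genes are scaled by TMM. TPM use CDS lengths of the S288C annotation R64, which matched 6048 IDs. As the reads were aligned to another strain, no coordinates or sequences are given. For single cultures, log2 P/T was computed with 0.5 added as a prior count.

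Total and polysomal libraries of 1 strain with the same replicate number were treated as a culture. Their deviations from the condition means correlated over 5152 genes with r of 0.50, 0.20 and 0.72 in ΔES27Lb and 0.40, 0.68 and 0.90 in wildtype. The numbers were taken to pair the samples, which the labels do not state. Between the strains, same-numbered total libraries had r of 0.19, 0.40 and 0.43, and polysomal libraries had r of -0.11, 0.55 and 0.30. For strain differences in total and in polysomal mRNA, the block was the replicate number, shared by both strains and pools. No r was computed between libraries with different numbers. The r within and between the strains therefore have no reference, and they do not establish the pairing. The biological coefficient of variation was 0.315 without and 0.194 with the culture as a block.

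Alternatives were DESeq2 1.42.0 (Wald test), its size factors within edgeR, no filter, a minimum of 10 counts in each library, fits restricted to the compared libraries, the block, an offset for CDS length per library (loess, span 0.5) without and with the block, *TIF1* and *TIF2* summed, a prior count of 2, and leaving out each culture. Leaving out each culture with the block was added after seeing the data. The tests were run on simulated counts with changes larger than those of the 30 genes. This check therefore does not show their power for smaller changes. All 30 genes are named, and values in every library are given for genes called with or without the block, the 5 highest and 5 lowest in P/T, the 4 with the largest strain difference in P/T and in total mRNA, and related pairs. The 30 genes and the 22 further genes were chosen with earlier results of these data known.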

Additional observations from a re-analysis of the deposited data

How the results depend on the processing

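Without a block, 0 of 30 genes were called in every comparison under each alternative run. With the replicate block, P/T calls were 1 in ΔES27Lb and 10 in wildtype, and with the block and the CDS length offset 1 in ΔES27Lb and 0 in wildtype. *CLU1*, lower in wildtype with the block (-0.60), had 0.07 with the block and this offset. The blocked count in ΔES27Lb was 12 without wildtype replicate 1 and 0 without each of the other cultures. The blocked count in wildtype was 8, 6 and 2 without wildtype replicates 1, 2 and 3, and 5, 7 and 4 without ΔES27Lb replicates 1, 2 and 3. Leaving out a culture also leaves fewer samples. Among these fits, the share of all genes called is given above only for the one without wildtype replicate 1. The block changed no call between the strains. The median strain difference of the 30 genes changed sign with the culture left out, and over all alternatives it lay between -0.26 and 0.29 in total mRNA and between -0.22 and 0.40 in polysomal mRNA (log2). Its range was 0.00 to 0.24 for P/T. The 10 blocked calls in wildtype include *TIF1*, whose reads are shared with *TIF2*. At these depths the spread between 3 replicates limits what can be called, and a missing call does not show that P/T is the same in both strains.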
